A study of Mus musculus with 11 samples.

Results

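The genes that encode the MHC class II antigen-presenting machinery and its transactivator were described here by name. The 10 members, of 22068 gene symbols in all, were the class II chain genes H2-Aa, H2-Ab1 and H2-Eb1, the invariant chain gene Cd74, the peptide-exchange genes H2-DMa, H2-DMb1 and H2-DMb2, the exchange-inhibitor genes H2-Oa and H2-Ob, and the transactivator gene Ciita. RNA sequencing had been done on 11 libraries of myeloid cells that were pulled from subcutaneous mouse tumours with antibodies to CD11b and magnetic beads. All mice were on the C57BL/6 background, and all tumours had received a local dose of 15 Gy, with harvest on day 4. The WT group had 3 libraries, the TLR9KO group, whose mice lacked Tlr9, had 4, and the STAT3KO group, labelled STAT3-/- and MxCre/Stat3flox, had 4. In MxCre mice the recombinase is driven by an interferon-inducible Mx promoter that acts in many cell types, so the deletion is not particular to myeloid cells. The sources used here do not give the age or sex of the mice or the tumour line. No label ties a replicate to its own animal; p-values therefore reflect variation among these libraries, part of which may be technical.

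MHC class II molecules are heterodimers of an alpha and a beta chain that present peptides from the endosomal route to CD4 T cells. Cd74, the invariant chain, escorts new heterodimers to endosomes and leaves a fragment in the groove, which H2-DM exchanges for antigen peptides while H2-O holds H2-DM in check. The genes of the class II chains, Cd74 and H2-DM are switched on together by Ciita, a coactivator that binds no DNA itself. It is recruited by the RFX, CREB and NF-Y factors assembled on the X and Y boxes of the promoters. Dendritic cells, B cells and macrophages activated by interferon gamma are known for high class II levels.

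Depth, estimated from the steps of the values, was 30000000 to 53450000 reads per library. Values above 0 were present for 15123 to 16237 symbols. Stat3 was 15.7 to 19.7 RPKM (reads scaled to transcript length and to the mapped reads of the library) in STAT3KO against 70.7 to 76.1 in WT, and Tlr9 was 3.53 to 7.70 RPKM in TLR9KO against 20.5 to 41.6 in WT. A value per gene cannot tell where in Stat3 or Tlr9 the residual reads lie. Itgam, which encodes CD11b, was 177 to 328 RPKM over the 11 libraries.

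The promoters of 7 of the 10 members were matched by symbol in a RefSeq table of build GRCm38.p6 that holds 250 bases before and 50 bases after each gene start. The stretch from base 130 to base 31 before the start is shown for 6 of them because all 6 hold the Y box core and 4 also hold the X box part, while their levels differed between the groups in different ways. It lies on the plus strand of chromosome 17 at chr17:34305737-34305836 for H2-Eb1, chr17:34153061-34153160 for H2-DMb1, chr17:34145119-34145218 for H2-DMb2, chr17:34092249-34092348 for H2-Oa and chr17:34238775-34238874 for H2-Ob, and on the minus strand at chr17:34287854-34287953 for H2-Aa. Sequences run 5′ to 3′ on the gene's strand, and capitals mark the Y box core TGATTGG, an inverted CCAAT, and the X box part AACNNNTGATG.
H2-Aa: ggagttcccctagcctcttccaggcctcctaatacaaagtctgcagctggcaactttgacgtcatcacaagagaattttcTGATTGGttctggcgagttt
H2-Eb1: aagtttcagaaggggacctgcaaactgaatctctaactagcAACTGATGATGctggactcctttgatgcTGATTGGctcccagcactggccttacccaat
H2-DMb1: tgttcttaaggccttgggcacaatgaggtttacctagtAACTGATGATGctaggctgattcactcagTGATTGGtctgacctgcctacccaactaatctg
H2-DMb2: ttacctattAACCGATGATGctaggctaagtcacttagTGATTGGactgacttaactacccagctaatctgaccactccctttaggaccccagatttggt
H2-Oa: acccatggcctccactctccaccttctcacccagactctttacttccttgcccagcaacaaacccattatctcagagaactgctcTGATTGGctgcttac
H2-Ob: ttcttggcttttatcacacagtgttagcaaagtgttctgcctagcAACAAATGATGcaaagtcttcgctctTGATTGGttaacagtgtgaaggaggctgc

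Of the 7 members matched, 6 held the Y box core and were shown for that reason. The core lay at first bases 45 to 92 before the start and always on the gene's strand, although both strands were searched. The core was held by 7.8% of 32544 promoter windows of 300 bases. The X box part lay upstream of it in H2-Eb1, H2-DMb1, H2-DMb2 and H2-Ob and was held by 0.621% of the windows, and 0.0522% of the windows held both. These letters do not overlap. Both windows of H2-DMa held neither string. The strings were chosen after the sequences had been read, so the window shares are no test of these promoters. A match is a description of letters, not of a bound factor. H2-Ab1, Cd74 and Ciita had no entry.

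Cd74 and the chain genes were among the most abundant transcripts of these cells. Cd74 ranked 1 to 4 among all symbols in the WT libraries, 1 to 8 in TLR9KO and 7 to 17 in STAT3KO. H2-Aa ranked 10 to 19 in WT and 27 to 106 in STAT3KO. By mean RPKM, a scale per length on which genes can be compared, the order over the 11 libraries was Cd74 (4855), H2-Aa (1817), H2-Ab1 (1697), H2-Eb1 (1000.3), H2-DMa (380.4), H2-DMb1 (269), H2-DMb2 (56.6), Ciita (26.05), H2-Oa (2.42) and H2-Ob (1.80). Neighbours in this order kept it in 11 of 11 libraries, except H2-Aa above H2-Ab1, which held in 10, and H2-Oa above H2-Ob, which held in 7. H2-Oa and H2-Ob overlapped in WT and in TLR9KO, whereas H2-Oa was the higher in all 4 STAT3KO libraries, and H2-Aa stood only slightly above H2-Ab1, with a ratio of 0.971 to 1.18. Together the members made up 0.873% to 4.943% of the summed RPKM of a library.

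**Figure D1:**
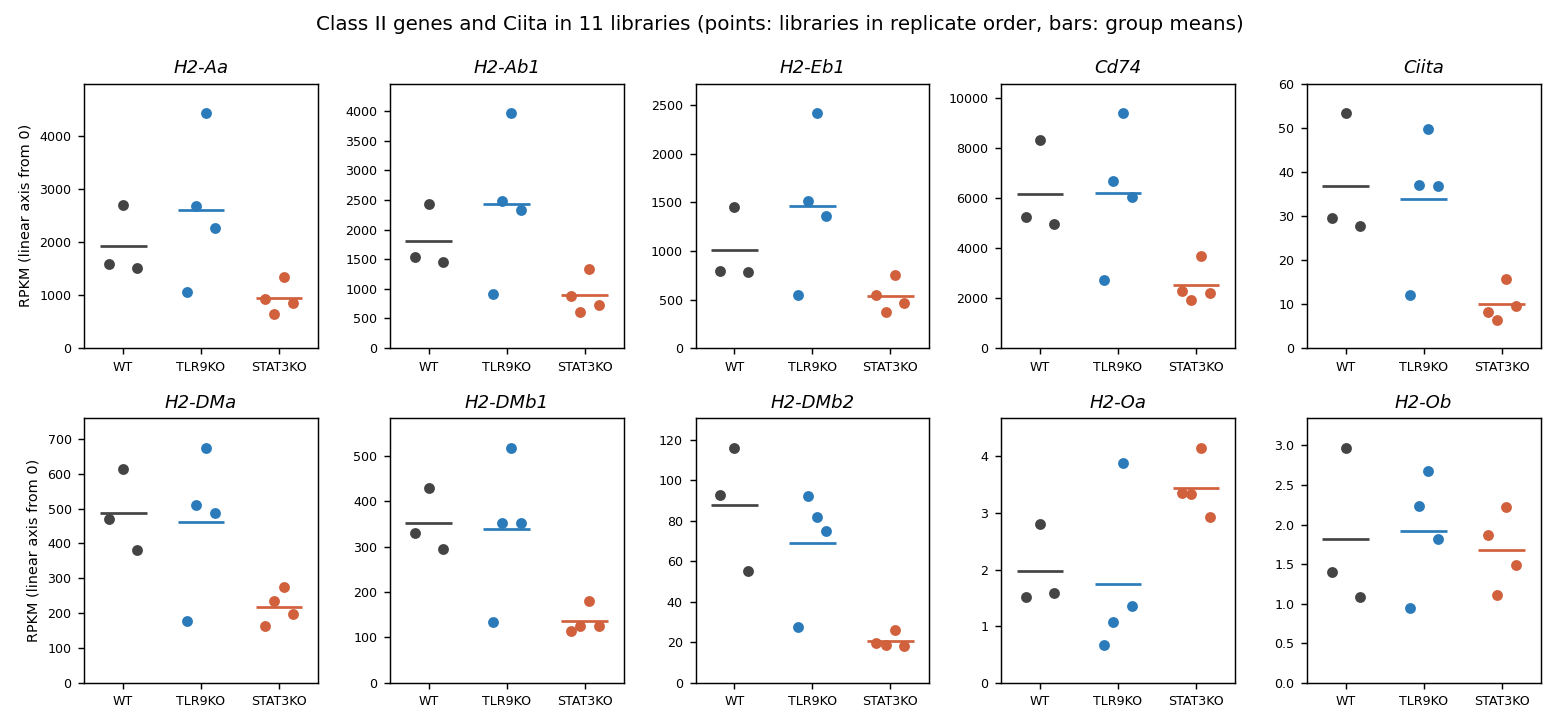
Level of each member in RPKM (vertical axis, linear from 0) in the 3 WT, 4 TLR9KO and 4 STAT3KO libraries; points are libraries and bars are group means. All STAT3KO points lie below all WT points for 8 members, H2-Oa lies above them, and TLR9KO replicate 1 is the lowest TLR9KO point in every panel.

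STAT3KO was compared with WT to see how class II genes stood in irradiated tumours when Stat3 was deleted. Ciita, Cd74 and the 3 H2-DM genes fell, to between 23.5% and 44.4% of the WT mean. The chain genes H2-Aa, H2-Ab1 and H2-Eb1 were at 48.7%, 49.1% and 52.8% of the WT mean and did not pass the test, and H2-Oa was at 174.7%. Of 10 members, 5 fell and 5 did not pass, where 14.8% of the 10557 tested genes fell, 29.2% rose and 44.0% passed in either direction. The STAT3KO libraries lay below all WT libraries for 8 members (16.9% of all genes did so) and above them for 1, H2-Oa (30.8%). The median log2 difference was -1.11 over the members and 0.09 over all genes. In these bulk samples, fewer cells that carry class II and less class II RNA per cell cannot be told apart.

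Ciita, the transactivator, was 29.6, 53.5 and 27.8 RPKM in the WT libraries and 8.31, 6.35, 15.8 and 9.49 RPKM in the STAT3KO libraries. The groups did not overlap, and STAT3KO replicate 3 was the highest of its group and STAT3KO replicate 2 the lowest. The means were 37.0 ± 14.3 (SD, n = 3) and 9.98 ± 4.07 RPKM (n = 4), 3.70-fold lower in STAT3KO. The difference in log2(RPKM + 1) was -1.80 ± 0.43 (model SE), with a limma adjusted p of 0.00652, and it passed in every alternative setting tried. The exact two-sided permutation test over the libraries gave p = 0.0286, which is the smallest it can give for 3 against 4. That test gave the same p for the 3 H2-DM genes and H2-Oa, but 0.0571 for Cd74, H2-Aa, H2-Ab1 and H2-Eb1. Ciita is transcribed from several promoters in different cell types, and values per gene do not show which of them was in use.

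Cd74, the invariant chain, was 5228, 8314 and 4969 RPKM in WT and 2284, 1932, 3673 and 2205 RPKM in STAT3KO. No STAT3KO library reached the lowest WT library. The means of 6170 ± 1861 and 2524 ± 781 RPKM differed 2.45-fold (log2 -1.29 ± 0.38, limma adjusted p = 0.0178). WT replicate 2, the highest WT library, bears on this call: without it the log2 difference was -1.06 and the adjusted p 0.0694.

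The chains of the A molecule had like values in every library. H2-Aa, the alpha chain, was 1581, 2704 and 1508 RPKM in WT and 927, 639, 1338 and 855 RPKM in STAT3KO. H2-Ab1, its beta chain, was 1543, 2434 and 1446 RPKM in WT and 884, 603, 1337 and 725 RPKM in STAT3KO. Both genes had every STAT3KO library under every WT library, with WT replicate 2 far above the other two. The log2 differences were -1.04 ± 0.42 for H2-Aa (limma adjusted p = 0.067) and -1.05 ± 0.43 for H2-Ab1 (limma adjusted p = 0.0703), so neither passed. The 95% intervals of the ratio, on the scale of RPKM + 1, ran from 0.26 to 0.93 for H2-Aa and from 0.25 to 0.93 for H2-Ab1.

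H2-Eb1, the beta chain of the E molecule, was 793, 1451 and 783 RPKM in WT and 545, 370, 750 and 468 RPKM in STAT3KO. WT replicate 3 and STAT3KO replicate 3 lay close to each other, but the groups did not overlap. Its log2 difference of -0.90 ± 0.43 did not pass (limma adjusted p = 0.115), with an interval of the ratio from 0.28 to 1.04. C57BL/6 mice carry a defective gene for the E alpha chain, and the symbol H2-Ea-ps was listed at 0 to 0.1 RPKM in all libraries. H2-Eb2, another E beta gene, was 0.1 to 0.71 RPKM, and both were too low to be tested.

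How many members passed differed between settings. The TLR9KO libraries, which varied most, share the estimate of the spread in the 3-group model. When only WT and STAT3KO were fitted, 9 members passed, with H2-Aa at an adjusted p of 0.0197, H2-Ab1 at 0.0201, H2-Eb1 at 0.035 and H2-Oa, higher, at 0.0207 by limma. Of all genes, 4467 passed in that fit, against 4648 with 3 groups. The count of members was 8 without TLR9KO replicate 1 (4875 of all genes), 8 without TLR9KO replicate 3 (4775) and 3 without WT replicate 2 (4395). It was 7 with median-ratio scaling (4550) and 7 with the correction for GC content and length (4019).

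H2-DMa, the alpha chain of the exchange factor, was 471, 613 and 382 RPKM in WT and 162, 236, 274 and 197 RPKM in STAT3KO. It fell 2.25-fold between the means of 488.5 ± 117 and 217 ± 48.4 RPKM, with no overlap (log2 -1.17 ± 0.38, limma adjusted p = 0.028). This call was lost in the fits without WT replicate 1, WT replicate 2, STAT3KO replicate 1 or STAT3KO replicate 4, where the highest adjusted p was 0.0938.

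The alternative beta chains of H2-DM also fell. H2-DMb1 was 330.4, 429.6 and 295 RPKM in WT and 115, 125, 181 and 126 RPKM in STAT3KO, 2.57-fold lower (log2 -1.36 ± 0.37, limma adjusted p = 0.0113). H2-DMb2 was 92.6, 116.0 and 55.3 RPKM in WT and 19.6, 18.9, 25.9 and 18.2 RPKM in STAT3KO, 4.26-fold lower (log2 -1.99 ± 0.37, limma adjusted p = 0.00166). Both calls held in every alternative setting tried. The STAT3KO libraries lay close together, with a coefficient of variation of 17.2% for H2-DMb2. H2-DMb1 and H2-DMb2 are near-identical neighbours that can share reads, and the sources used here do not say how reads mapping to both were counted, so the split between them is uncertain.

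H2-Oa, the alpha chain of the exchange inhibitor, lay on the other side of WT. It was 1.52, 2.80 and 1.59 RPKM in WT and 3.35, 3.34, 4.15 and 2.93 RPKM in STAT3KO, with every STAT3KO library above every WT library. The log2 difference of 0.60 ± 0.30 did not pass (limma adjusted p = 0.132). H2-Ob, the beta chain, was 1.40, 2.97 and 1.08 RPKM in WT and 1.87, 1.11, 2.22 and 1.49 RPKM in STAT3KO, and all 4 STAT3KO libraries lay within the WT range. Its log2 difference was -0.04 ± 0.26 (limma adjusted p = 0.925), with an interval of the ratio from 0.66 to 1.44. On the length of the longest annotated transcript, H2-Oa rested on about 61 to 131 reads per library in WT and 147 to 240 in STAT3KO.

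**Figure D2:**
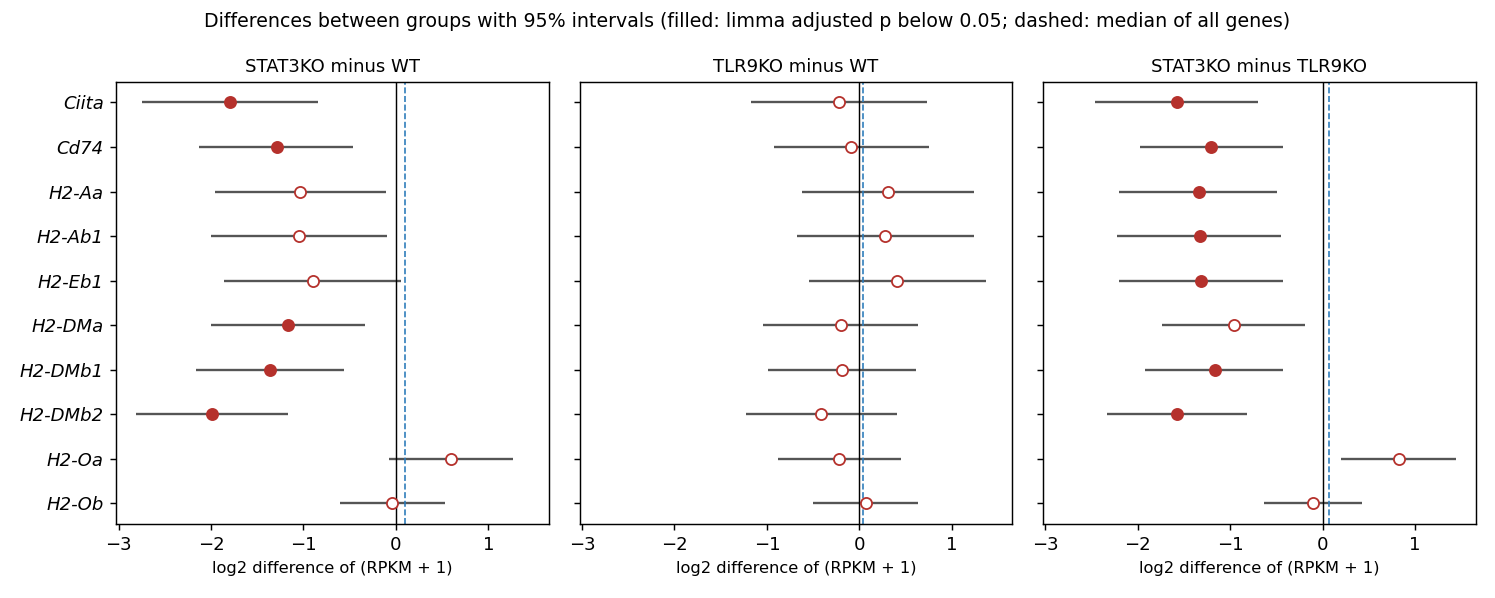
Log2 difference of (RPKM + 1) of each member (horizontal axis) in the 3 comparisons, with the model's 95% interval; filled points passed the threshold of 0.05 on the limma adjusted p and the dashed line is the median of all tested genes. H2-DMb2 and Ciita lie lowest in STAT3KO minus WT, H2-Oa lies on the other side of 0, and no point is filled in TLR9KO minus WT.

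In TLR9KO against WT, none of the 10 members passed, by limma at the adjusted threshold (30.6% of all tested genes passed, 20.0% higher and 10.6% lower) or at an unadjusted p under 0.05, where the count was also 0. The lowest adjusted p was 0.43, for H2-DMb2. The groups overlapped for 10 of 10 members, where 13.3% of all genes lay lower without overlap and 22.8% higher. Medians of the log2 difference were -0.14 over the members and 0.04 over all genes. The intervals leave room for sizeable differences: the ratio, on the scale of RPKM + 1, could lie from 0.44 to 1.66 for Ciita, from 0.53 to 1.68 for Cd74 and from 0.63 to 2.36 for H2-Ab1.

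TLR9KO libraries spread widely. Cd74 was 2706, 6684, 9388 and 6017 RPKM in TLR9KO replicates 1 to 4, and Ciita was 12.03, 37.0, 49.7 and 37.0 RPKM. H2-Aa was 1050, 2681, 4436 and 2267 RPKM, H2-Ab1 908, 2488, 3964 and 2334 RPKM, and H2-Eb1 547, 1516, 2419 and 1363 RPKM. Replicate 1 was the lowest TLR9KO library for all 10 members, and the highest value was 3.47 times the lowest for Cd74 and 4.42 times for H2-Eb1. In WT the same quotients were 1.67 and 1.85.

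The exchange genes of TLR9KO had the same shape. H2-DMa was 179, 510.5, 675 and 487 RPKM, H2-DMb1 134, 352, 517 and 351 RPKM, and H2-DMb2 27.6, 92.3, 81.8 and 74.8 RPKM. H2-Oa was 0.66, 1.07, 3.88 and 1.36 RPKM, and H2-Ob 0.94, 2.24, 2.68 and 1.82 RPKM. TLR9KO replicate 3 was the highest for every member except H2-DMb2, where replicate 2 was. Without replicate 1 the signs of the small differences of Cd74, Ciita, H2-DMa and H2-DMb1 turned, to 0.27, 0.20, 0.20 and 0.20 on the log2 scale, and none of the 10 passed.

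STAT3KO was then set against TLR9KO. Here 7 members fell and 3 did not pass, where 9.46% of all tested genes fell, 13.4% rose and 22.8% passed in either direction. The fall was alike in size for Ciita (log2 -1.58 ± 0.40, limma adjusted p = 0.0178) and H2-DMb2 (-1.58 ± 0.35, limma adjusted p = 0.00954), followed by H2-Aa (-1.34 ± 0.39, limma adjusted p = 0.0305). H2-Ab1 differed by -1.33 ± 0.40, H2-Eb1 by -1.32 ± 0.40, Cd74 by -1.21 ± 0.35 and H2-DMb1 by -1.17 ± 0.34, with limma adjusted p values from 0.0296 to 0.0371. H2-DMa (-0.96 ± 0.35), H2-Oa (0.82 ± 0.28) and H2-Ob (-0.11 ± 0.24) did not pass, with limma adjusted p values of 0.0708, 0.057 and 0.773. By exact permutation, p was 0.0286 for H2-DMb2, the smallest it can be, and 0.0571 for each of the other members that fell. The median was -1.26 over the members and 0.06 over all genes.

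The groups overlapped for 9 of 10 members, and for H2-DMb2 alone every STAT3KO library lay below every TLR9KO library (10.6% of all genes did so, and 16.4% lay higher). For Ciita, Cd74, the 3 chain genes, H2-DMa and H2-DMb1, TLR9KO replicate 1 was the TLR9KO library inside the STAT3KO range, and the other 3 lay above it. This comparison rests on single libraries: the members called were 1 without TLR9KO replicate 2, TLR9KO replicate 4 or STAT3KO replicate 2, 2 without STAT3KO replicate 1 or STAT3KO replicate 4, 3 without TLR9KO replicate 3 and 8 without TLR9KO replicate 1. The one call that held in every setting was H2-DMb2. STAT3KO minus WT and STAT3KO minus TLR9KO share the STAT3KO libraries, so their values are not independent.

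Ratios between members within a library remove any factor common to the library, and they are given as a description. H2-Aa over H2-Ab1 was 1.02 to 1.11 in WT, 0.971 to 1.16 in TLR9KO and 1.00 to 1.18 in STAT3KO. The alpha and beta chains of the A molecule thus stood at near parity in every library, whatever their level. H2-Eb1 over H2-Ab1 was 0.514 to 0.596, 0.584 to 0.61 and 0.561 to 0.645 in the same order.

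Other ratios separated some of the groups. H2-DMa over H2-Ab1 was 0.252 to 0.305 in WT, 0.17 to 0.209 in TLR9KO and 0.183 to 0.391 in STAT3KO, so STAT3KO overlapped both other groups. Ratios of Ciita to H2-Ab1 and of H2-DMb2 to H2-DMb1 were not among those planned. How often ratios of other gene pairs separate these groups was not examined. Cd74 over H2-Ab1 was 3.39, 3.42 and 3.44 in WT, 2.37 to 2.98 in TLR9KO and 2.58 to 3.20 in STAT3KO, so both knockout groups lay below WT, whose libraries lay close together. Ciita was 1.92% to 2.20% of H2-Ab1 in WT, 1.25% to 1.58% in TLR9KO and 0.94% to 1.31% in STAT3KO. Relative to H2-Ab1, the transactivator was thus lower in every knockout library than in any WT library, on uncorrected values. With the GC and length correction, log2 differences from WT in STAT3KO were -1.54 for Ciita and -1.249 for H2-Ab1, against -1.80 and -1.05 without it. In TLR9KO they were 0.09 and 0.303 with the correction, against -0.22 and 0.28 without it. The ratio by library was not computed on corrected values.

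Within the exchange machinery, H2-DMa over the sum of H2-DMb1 and H2-DMb2 was 1.09 to 1.12 in WT, 1.1 to 1.15 in TLR9KO and 1.21 to 1.64 in STAT3KO. H2-DMb2 was 18.7% to 28.0% of H2-DMb1 in WT, 15.8% to 26.2% in TLR9KO and 14.3% to 17.1% in STAT3KO. H2-Oa was 0.323% to 0.457% of H2-DMa in WT, 0.21% to 0.575% in TLR9KO and 1.41% to 2.07% in STAT3KO. H2-Oa RNA remained scarce beside H2-DMa RNA, but its share was larger in every STAT3KO library than in any other library. H2-Ob over H2-DMb2 went the same way, at 1.51% to 2.56%, 2.43% to 3.41% and 5.89% to 9.53%. In STAT3KO, H2-DMa and H2-DMb2 were at 44.4% and 23.5% of the WT mean and fell. H2-Oa (174.7%) and H2-Ob (92.1%) did not pass against WT.

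**Figure D3:**
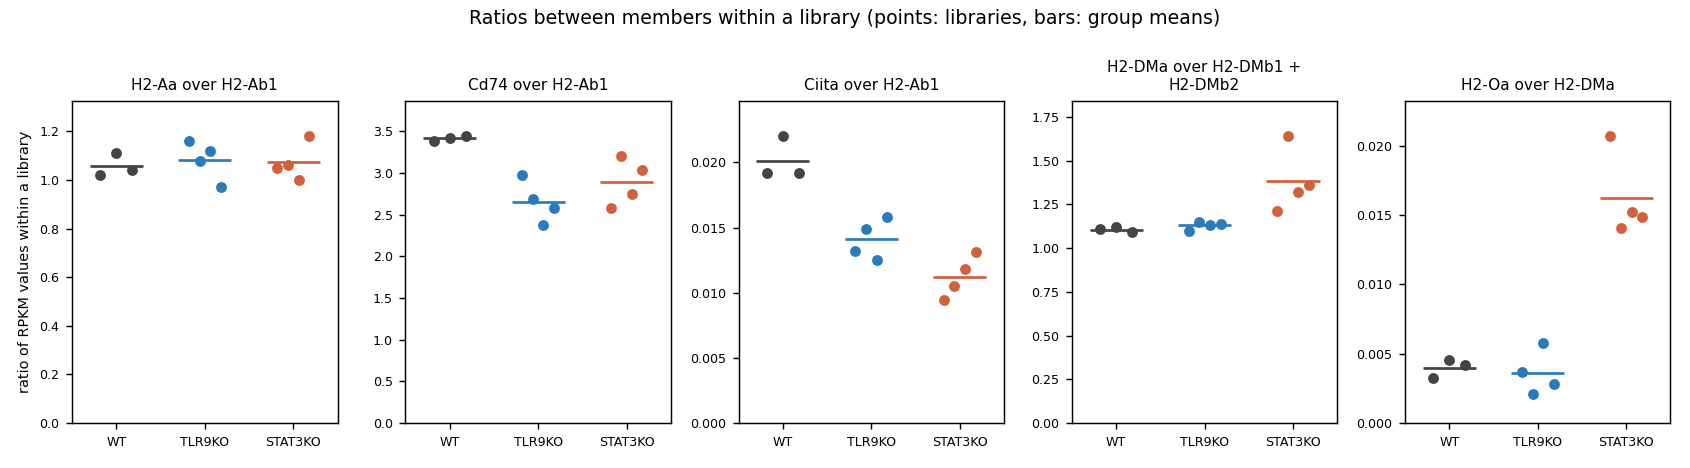
Ratio of the RPKM values of named members within a library (vertical axes, linear from 0) in the 3 groups; points are libraries and bars are group means. H2-Aa over H2-Ab1 stays near 1 in all groups, Cd74 over H2-Ab1 and Ciita over H2-Ab1 are highest in WT, and H2-Oa over H2-DMa is highest in STAT3KO.

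Libraries of one group also differed from each other, and the members did so together with Ciita. With each group's mean removed, the correlation of log2(RPKM + 1) with Ciita over the 11 libraries was 0.99 for Cd74 (Spearman's rho 0.99) and 0.97 for H2-Aa, H2-Ab1 and H2-Eb1 (rho 0.97 to 0.98). The exact permutation p within groups was 0.00145 for Cd74 (rho p = 0.00116), with Benjamini-Hochberg values over the 9 members of 0.00261 and 0.00209. The smallest p the 3456 arrangements allow is 0.000289. Without TLR9KO replicates 1 and 3, the libraries farthest from the median of Ciita, r was 0.97 for Cd74 and 0.95 for the chains.

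For the exchange genes Pearson's r was 0.95 for H2-DMb1 (exact permutation p = 0.0026, adjusted 0.0039), 0.89 for H2-DMa (0.00955, adjusted 0.0107) and 0.89 for H2-DMb2 (0.00781, adjusted 0.01), and rho was 0.94, 0.86 and 0.84. Without those libraries r was 0.92, 0.70 and 0.75. H2-Ob, whose mean hardly differed between groups, still had an r of 0.91 (exact permutation p = 0.00145, adjusted 0.00261; rho 0.94). H2-Oa had an r of 0.75 and a rho of 0.65 and did not pass (exact permutation p = 0.0828 and 0.0567). No r over the pooled groups is given for the members, since the STAT3KO libraries form a cluster of low Ciita. The r values share the libraries, and a library-wide factor would move all genes of one library together. The share of all tested genes with a like r to Ciita within groups was not examined. These values therefore do not show a trait particular to class II genes.

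**Figure D4:**
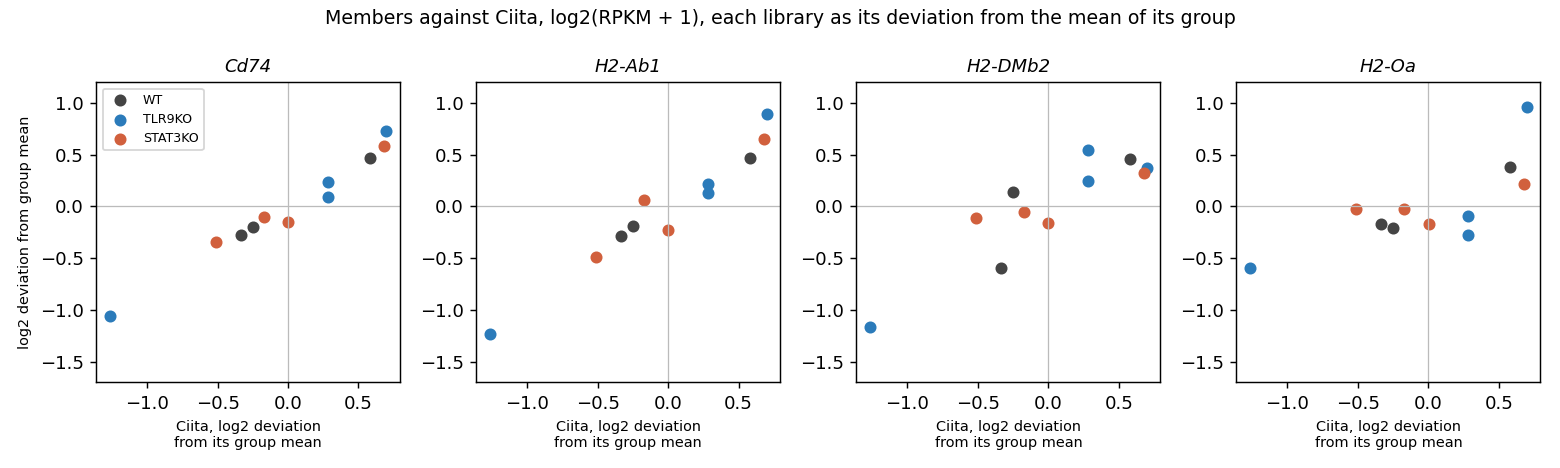
Deviation of each library from the mean of its group in log2(RPKM + 1), for Ciita (horizontal axes) and 4 members (vertical axes); each point is 1 of 11 libraries, coloured by group. Cd74 and H2-Ab1 lie along a line (r = 0.99 and 0.97), H2-DMb2 and H2-Oa scatter more (r = 0.89 and 0.75), and TLR9KO replicate 1 is the lowest point.

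The factors that recruit Ciita to class II promoters were examined next. Of 10 enhanceosome and Ciita-binding factors, 2 rose in STAT3KO against WT and 8 did not pass, with a list median of -0.07. In that comparison 29.2% of all tested genes rose and 14.8% fell, shares to set beside this count and those of the lists below. Rfxap, a subunit of the RFX complex, was 4.42 ± 0.59 RPKM in WT and 6.79 ± 0.75 in STAT3KO and rose by 0.52 ± 0.10 on the log2 scale (limma adjusted p = 0.00188). Nfyb, a subunit of NF-Y, rose from 3.76 ± 0.59 to 4.91 ± 0.18 RPKM (0.32 ± 0.10, 0.0191). Leaving out WT replicate 1 took the adjusted p of Nfyb in limma to 0.0915, and correction for GC content and length also ended its call. Rfx5, the DNA-binding RFX subunit, was 2.72 to 2.99 RPKM in WT and 2.16 to 3.19 in STAT3KO. Rfxap (0.32 ± 0.10) and Nfyb (0.38 ± 0.10) also rose in TLR9KO against WT. There the Rfxap call was lost in 5 of 11 fits with a library left out and with the GC and length correction (limma adjusted p = 0.0537). With that correction Nfyb was 0.06 (limma adjusted p = 0.673). Over all lists, 3 of 12 calls in TLR9KO against WT, 17 of 30 in STAT3KO against TLR9KO and 21 of 47 in STAT3KO against WT passed in each fit with a library left out. Among the listed genes given with values, that correction also ended the calls of Ifngr1, Hdac2, Cst3, H2-K1, Plac8 and Cd33 in STAT3KO against WT, of Ctsd and Tcf4 in TLR9KO against WT, and of Creb1, Cebpa and Lgmn in STAT3KO against TLR9KO. In STAT3KO against TLR9KO, Creb1 (-0.41 ± 0.11) and the acetyltransferase gene Kat2b (-0.49 ± 0.12) fell.

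Interferon gamma induces Ciita through its receptor, JAK kinases and IRF1. Of 11 genes of this route 10 were tested, since Ifng itself was 0.08 to 1.34 RPKM. In STAT3KO against WT 3 rose, 1 fell and 6 did not pass (median 0.27), where 29.2% of all tested genes rose and 14.8% fell. Usf1, a factor that acts at a Ciita promoter, rose (log2 0.64 ± 0.13, limma adjusted p = 0.0023). The receptor genes Ifngr1 (0.44 ± 0.16, 0.0441) and Ifngr2 (0.36 ± 0.12, 0.0342) rose and Jak1 fell (-0.29 ± 0.09, 0.0215), calls that were lost in 7, 5 and 1 of 11 fits with a library left out. Irf1 was 55.8 ± 14.6 RPKM in WT and 63.9 ± 19.2 in STAT3KO and did not pass. In TLR9KO against WT, Ifngr2 (0.44 ± 0.12) and the phosphatase gene Ptpn2 (0.88 ± 0.16) rose. With the GC and length correction Ptpn2 was 0.32 and did not pass (limma adjusted p = 0.0761). Jak2 (-0.79 ± 0.20), Socs1 (-0.96 ± 0.26) and Ptpn2 (-0.50 ± 0.14) fell in STAT3KO against TLR9KO.

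Among 8 myeloid factors known at Ciita promoters or as its repressors, Irf4 moved furthest. IRF4 is a transcription factor of dendritic cells, B cells and alternatively activated macrophages. It was 12.9, 25.96 and 8.75 RPKM in WT, 3.76, 12.8, 9.77 and 10.4 RPKM in TLR9KO and 2.06, 1.39, 2.77 and 2.07 RPKM in STAT3KO. WT replicate 2 was the highest WT library and TLR9KO replicate 1 the lowest TLR9KO library, as for Ciita. The highest TLR9KO library differed, replicate 2 for Irf4 and replicate 3 for Ciita. Irf4 fell in STAT3KO against WT (log2 -2.34 ± 0.38, limma adjusted p = 0.000748) and against TLR9KO (-1.64 ± 0.35, 0.00891), and both calls held in every setting. In STAT3KO against WT, 2 of the 8 fell, 1 rose and 5 did not pass (median 0.07).

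Prdm1, which encodes the Ciita repressor Blimp-1, fell from 5.33 ± 1.28 to 2.72 ± 0.58 RPKM (-0.76 ± 0.18, limma adjusted p = 0.00554). The deacetylase gene Hdac2 rose (0.41 ± 0.13, 0.0208), a call lost in 4 of 11 fits with a library left out. Sfpi1, the gene of the myeloid factor PU.1, was 254 ± 22.9 and 260.2 ± 16.3 RPKM, and Irf8 was 102 ± 21.3 and 94.1 ± 9.54 RPKM, and neither passed. Against TLR9KO, Prdm1 fell (-0.94 ± 0.16) and Cebpa, a myeloid lineage factor, rose (0.54 ± 0.15) in STAT3KO.

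Class II molecules are loaded in endosomes, where proteases cut antigens and Cd74. Of 11 endosomal processing genes, 3 rose in STAT3KO against WT (29.2% of all tested genes did so) and 8 did not pass (median 0.16). Lgmn, the asparaginyl endopeptidase, was 794 ± 112 RPKM in WT and 1298 ± 63.0 in STAT3KO and rose by 0.72 ± 0.12 on the log2 scale (limma adjusted p = 0.001). Ctsb, a cathepsin, rose by 0.44 ± 0.12 (0.012) and Cst3, a cathepsin inhibitor, by 0.65 ± 0.18 (0.0114), each lost in 1 of 11 fits with a library left out: Ctsb without WT replicate 1 (limma adjusted p = 0.0553) and Cst3 without WT replicate 3 (0.0512). Ctss, the protease that trims Cd74, was 1436 ± 367 and 1763 ± 350 RPKM and did not pass. Ctsd, another cathepsin, fell in TLR9KO against WT (-0.61 ± 0.18). Against TLR9KO, Ctsb, Ctsd and Lgmn rose, and Ifi30, the lysosomal thiol reductase (-0.71 ± 0.23), and 2010106G01Rik, the protease gene Sppl2a (-0.64 ± 0.17), fell. In that comparison Ifi30, Ctsb, 2010106G01Rik and Lgmn lost the call in 8, 4, 3 and 1 of 11 fits with a library left out.

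Genes of the same chromosomal region and of class I were set beside the members. Of 8 other genes of the class II region, 6 were tested and all 6 did not pass in STAT3KO against WT, with log2 differences from -0.28 for Tap1 to 0.25 for Psmb9 and a median of 0.04. Btnl2, which lies beside the class II genes, was low and rose in TLR9KO against WT (0.54 ± 0.17) and fell in STAT3KO against TLR9KO (-0.70 ± 0.16). Of 10 class I genes, 3 rose in STAT3KO against WT and 7 did not pass, a share like the 29.2% of all tested genes that rose. The 3 were H2-K1 (0.64 ± 0.24, limma adjusted p = 0.0463), H2-D1 (0.58 ± 0.17, 0.0192) and H2-Q7 (0.93 ± 0.33, 0.0412). The calls of H2-K1 and H2-Q7 were lost in 7 of 11 fits with a library left out, and H2-D1 without WT replicate 1 (limma adjusted p = 0.0932). Class I genes are near-identical in sequence and can share reads. Nlrc5, the class I transactivator related to Ciita, was 16.6 ± 4.59 RPKM in WT and 17.4 ± 5.33 in STAT3KO (log2 0.06 ± 0.24). B2m, the class I light chain, rose in TLR9KO against WT (0.57 ± 0.18), but with the GC and length correction it was -0.14 and did not pass.

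Costimulatory and checkpoint ligands, which act beside class II on T cells, were split. Of 8 genes, 3 fell, 1 rose and 4 did not pass in STAT3KO against WT (median -0.34). Pdcd1lg2, the gene of PD-L2, fell from 19.2 ± 4.53 to 0.61 ± 0.35 RPKM (log2 -3.65 ± 0.43), Cd274, that of PD-L1, by 0.87 ± 0.13 and Cd80 by 0.69 ± 0.20, with limma adjusted p values of 0.00011, 0.000531 and 0.0173. Cd80 lost its call without WT replicate 2 (limma adjusted p = 0.0714). The adhesion gene Cd48 rose by 1.17 ± 0.23 and in TLR9KO against WT by 0.77 ± 0.23. With the GC and length correction Cd48 was 0.53 and 0.16 in these comparisons and did not pass (limma adjusted p = 0.0521 and 0.629), and its TLR9KO call was also lost in 4 of 11 fits with a library left out. The same 3 genes fell in STAT3KO against TLR9KO.

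Signals known to lower class II were also mixed. Of 10 such genes, 3 rose and 4 fell in STAT3KO against WT. The 4 with the smallest p were Socs3, a feedback inhibitor (-2.21 ± 0.19), Tgfb1 (-0.92 ± 0.09) and Il6 (-1.66 ± 0.27), which fell, and the IL-10 receptor gene Il10rb (0.53 ± 0.14), which rose. Tgfb1 (-0.88 ± 0.09) and Il6 (-1.02 ± 0.27) also fell in TLR9KO against WT. There Il6 lost its call without WT replicate 2 (limma adjusted p = 0.057). Socs3 fell in STAT3KO against TLR9KO (-2.36 ± 0.17). The part of these signals in the class II values was not tested.

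Markers of cells that carry class II were examined beside these results. Of 12 dendritic cell markers 8 were tested, and in STAT3KO against WT 1 fell and 7 did not pass. Itgax, the gene of CD11c, was 190.6, 190.6 and 127 RPKM in WT, 66.0, 132, 111 and 100.5 RPKM in TLR9KO and 41.4, 21.8, 34.2 and 52.2 RPKM in STAT3KO (STAT3KO minus WT log2 -2.19 ± 0.29, limma adjusted p = 0.000236). Summed over the list, dendritic cell markers were 248 to 412 RPKM in WT, 217 to 348 in TLR9KO and 119 to 206 in STAT3KO, a sum that holds much Itgax. The lineage-defining Flt3 was 0.12 to 0.31 RPKM in WT, 0.14 to 0.43 in TLR9KO and 0.32 to 1.48 in STAT3KO, so it was higher in STAT3KO than in WT without overlap, though too low to be tested. Xcr1 and Clec9a were at 0.06 to 0.48 and 0.18 to 3.75 RPKM, and Zbtb46 was 0.88 to 2.02 RPKM in WT and 1.60 to 2.62 in STAT3KO. Against TLR9KO, Itgax (-1.45 ± 0.27) and the lectin gene Clec10a (-0.56 ± 0.11) fell and Zbtb46 rose (0.55 ± 0.16). The part of dendritic cell content in the lower class II values was not tested.

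B cells carry class II too, but their defining markers were at or near 0. Of 9 B cell markers in the files, 7 stayed at or under 0.38 RPKM in every library, with Ms4a1 at 0 to 0.09 RPKM. The sums, 13.4 to 17.4 RPKM in WT, 9.7 to 17.0 in TLR9KO and 10.4 to 18.7 in STAT3KO, came mainly from Cd22. Cd79b rose in STAT3KO against WT, from 0.45 ± 0.12 to 3.10 ± 1.17 RPKM (log2 1.46 ± 0.23). Siglech, which marks plasmacytoid dendritic cells, was at most 0.11 RPKM; of that list of 5, Tcf4 rose in both knockout groups against WT (0.54 ± 0.17 and 0.57 ± 0.17), and Cox6a2 fell in TLR9KO against WT (-1.35 ± 0.23) and was higher in STAT3KO than in TLR9KO (1.78 ± 0.22).

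Of 12 macrophage markers, 8 rose, 1 fell and 3 did not pass in STAT3KO against WT. Trem2 and Apoe passed in each fit with a library left out, and the other 6 that rose lost the call in 1 to 4 of 11 such fits. The 4 with the smallest p were Trem2 (1.65 ± 0.12) and Apoe (2.28 ± 0.24), lipid-handling genes, the mannose receptor gene Mrc1, which fell (-0.85 ± 0.21), and Emr1, the gene of F4/80 (0.92 ± 0.26), whose call ended without WT replicate 1 (limma adjusted p = 0.0549). The sums were 4756 to 5825 RPKM in WT, 5212 to 8283 in TLR9KO and 8291 to 12043 in STAT3KO. Of 8 monocyte markers, 3 rose (Cx3cr1 by 3.28 ± 0.38, Ly6c2 by 2.08 ± 0.50 and Plac8 by 1.03 ± 0.37) and Vcan fell (-1.35 ± 0.47), and of 5 leukocyte genes Lyz2 and Cd33 rose and Itgam fell (-0.47 ± 0.17). Of 9 T and NK cell markers, Lck fell in STAT3KO against WT (-1.18 ± 0.44), and that list summed to 3.0 to 30.4 RPKM. With a library left out, Itgam lost its call in 9 of 11 fits, Plac8, Vcan and Lck in 7 each and Cd33 in 4. The part of these cells in the class II values was not tested.

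Neutrophils carry little class II. In each group the library with the least Cd74 had the largest sum of 7 neutrophil markers: 177 RPKM in WT replicate 3 against 58.3 and 106 in the other WT libraries, 249 in TLR9KO replicate 1 against 68.0 to 104, and 492 in STAT3KO replicate 2 against 80.6 to 112. That library was the lowest for 9 of 10 members in WT, 10 in TLR9KO and 6 in STAT3KO. The genes behind the sums differed. Mmp8 gave 110 and 207 RPKM in WT replicate 3 and TLR9KO replicate 1, whereas S100a8 and S100a9 gave 194 and 149.8 RPKM in STAT3KO replicate 2 and at most 22.96 RPKM elsewhere. Other markers went the other way: Csf3r was lowest of its group in TLR9KO replicate 1 (16.1 RPKM) and STAT3KO replicate 2 (12.98 RPKM), and Retnlg in WT replicate 3 (1.28 RPKM) and TLR9KO replicate 1 (0.92 RPKM). With these 3 libraries left out, a setting added after the values were seen, 7 members fell in STAT3KO against WT (4176 of all genes passed). Among them were Ciita (-1.79, limma adjusted p = 0.00319) and Cd74 (-1.32, 0.0117). In STAT3KO against TLR9KO 8 fell (1823 of all genes passed), and in TLR9KO against WT none passed. These were also the libraries with the least Cd74, so leaving them out removed low class II values too. The part of neutrophil content in the class II values was not tested.

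**Figure D5:**
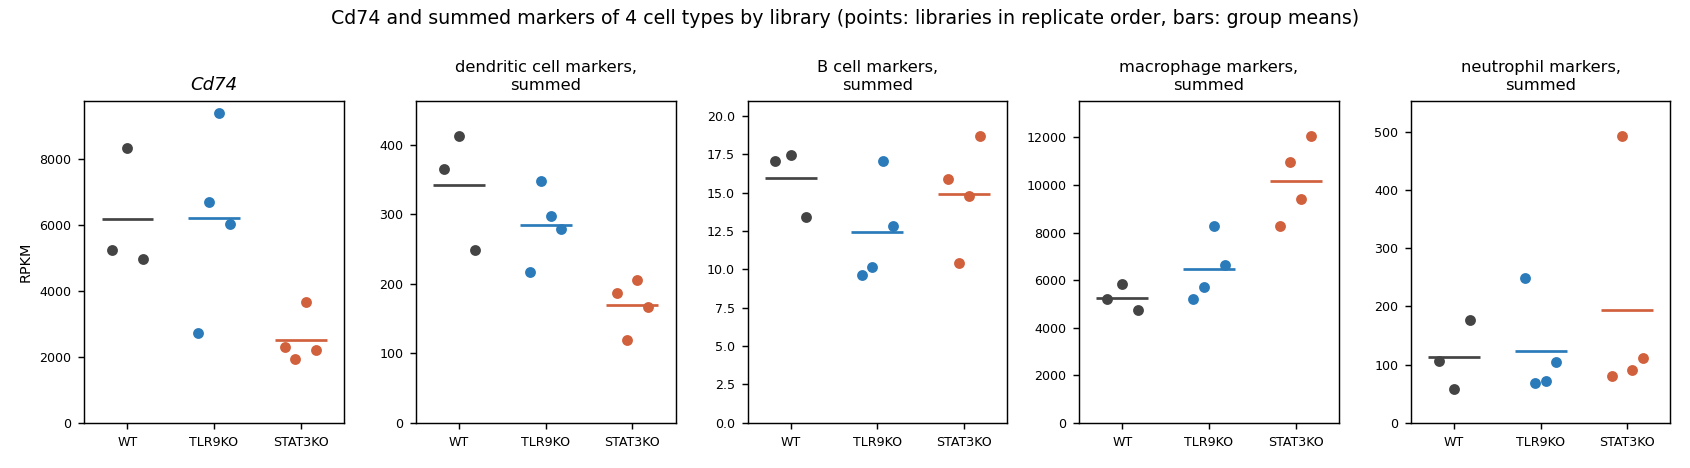
Cd74 and the summed markers of 4 cell types in RPKM (vertical axes, linear from 0) in the 3 groups; points are libraries in replicate order and bars are group means. Dendritic cell sums, which hold much Itgax, are lower and macrophage sums higher in all STAT3KO libraries than in WT. Of 8 dendritic cell markers tested, only 1, Itgax, fell. B cell sums overlap, and the neutrophil sum peaks in STAT3KO replicate 2.

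The tested genes whose pattern over the 11 libraries was most like that of class II were found by Pearson's r with the mean log2 level of H2-Aa, H2-Ab1, H2-Eb1 and Cd74. They included Klrb1b, a lectin-like receptor (0.986), Dolpp1 (0.970), the Toll-like receptor adaptor Myd88 (0.962), Ifi30 (0.961), Gbgt1 (0.961), the PI 3-kinase subunit Pik3r6 (0.957) and Siglec5 (0.953). Klrb1b was 7.67, 15.95 and 6.69 RPKM in WT, 2.25, 18.02, 25.6 and 11.25 RPKM in TLR9KO and 3.03, 1.49, 3.94 and 1.87 RPKM in STAT3KO. Like the chains, it was highest in TLR9KO replicate 3 and low in TLR9KO replicate 1. For Ciita the genes included the metalloproteinase gene Mmp25 (0.977), Ccdc109b (0.977), Pik3cd (0.976), Myd88 (0.976), Sema4a (0.971), Acaa1a (0.965) and Dolpp1 (0.960). These r values are a description over 11 libraries that share the 3 groups, and the genes were picked for them from all those tested. Group means were not removed here, so these values also hold the differences between groups. They cannot be set against the members' r values with Ciita within groups.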

How the data were processed

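RNA was measured in 11 libraries. The deposited files hold 1 RPKM value per gene symbol for 22068 symbols, per the file headers; the header of TLR9KO replicate 4 names no unit. Per the submitters' processing notes, build mm9 was used with TopHat 1.3.1, CASAVA 1.7, Bowtie 0.12.7 and Partek. The sources used here give no annotation, read denominator, strand setting or rule for reads that map to several places.

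Values were analysed as log2(RPKM + 1) for the 10557 genes whose mean reached 1 RPKM, which kept all 10 members; differences on this scale understate changes of low genes. A model with 3 group means was fitted over the 11 libraries in R 4.3.3 (limma 3.58.1 with lmFit, contrasts and eBayes, trend on), two-sided, with Benjamini-Hochberg adjustment over all tested genes and a threshold of 0.05. RPKM values are not counts, so no count model was used. Errors are SD for levels and moderated SE for differences. Single members were also compared by exact permutation, and ratios, likeness and promoter letters are descriptions. Python 3.11.15, pandas 2.3.3, scipy 1.17.1 and matplotlib 3.10.9 were used, and scripts were tested on simulated data. Depth came from the steps of low microRNA gene values, and reads from GENCODE lengths.

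The members, gene lists and tests were chosen with earlier results of these data known. Named were all members, Stat3 and Tlr9, every listed gene past the threshold or, where over 4 passed in a list, the 4 with the smallest p, and the 8 genes most like class II and Ciita; other genes given with values that did not pass, and Lyz2, Cd33, Itgam and Cd79b, were chosen after their values were seen where the rule did not name them. A few items that this rule names are not reported here. Alternatives were another pseudocount (0.1), no filter, a mean of at least 5 RPKM, median-ratio scaling, a replicate block, array weights, 2-group fits, a GC and length correction and leaving out each library.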

Additional observations from a re-analysis of the deposited data

Results flagged for a closer look

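H2-DMb1 in STAT3KO replicate 3 was 181 RPKM, set apart from the other 3 STAT3KO libraries, which lay between 115 and 126 RPKM. The gap to the nearest of them was 0.831 of the range of the group, just above Dixon's 95% critical value for 4 samples. It was 1 of 20 groups examined, and chance passes this limit in about 1 of 20 groups.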

How the results depend on the processing

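Of 594 member values over 20 settings, 495 kept their direction and side of the threshold, 46 lost and 27 gained a call, and 26 turned sign, none of these with a call. In STAT3KO minus WT, 5 members were called, against 3 with no filter on low values, 8 with array weights, 9 with only 2 groups fitted and 3 to 8 with a library left out. In STAT3KO minus TLR9KO, 7 were called, against 2 with no filter and 1 to 8 with a library left out. In TLR9KO minus WT the count was 0 throughout. The cause was not tested, except that the 2-group fit leaves out the TLR9KO spread by construction.

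H2-Ob turned sign in STAT3KO minus WT with array weights (0.162) and ranged from -0.226 to 0.241 with a library left out, above 0 without WT replicate 2 or STAT3KO replicate 2 (0.072). In STAT3KO minus TLR9KO it ranged from -0.29 to 0.018, above 0 without TLR9KO replicate 3 or STAT3KO replicate 2 (0.001). In TLR9KO minus WT, array weights gave H2-DMa 0.041, H2-DMb1 0.024, Cd74 0.167 and Ciita 0.137, and the GC and length correction H2-Ob -0.147, Ciita 0.09 and B2m -0.14. With a library left out, values in that comparison ran from -0.005 to 0.688 for H2-Aa and -0.014 to 0.694 for H2-Ab1, from -0.435 to 0.202 for H2-DMa, -0.442 to 0.203 for H2-DMb1, -0.329 to 0.269 for Cd74 and -0.45 to 0.203 for Ciita, each lowest without TLR9KO replicate 3 and highest without TLR9KO replicate 1, and from -0.119 to 0.347 for H2-Ob. Without the libraries highest in neutrophil markers, a setting chosen after seeing the data, H2-DMa was 0.038, H2-DMb1 0.086, Cd74 0.133 and Ciita 0.035.

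Same-numbered libraries of different groups correlated at -0.291 to 0.492 in 10 pairs, 4 of them over 0.1. The 30 pairs with different numbers ran from -0.608 to 0.533, so the numbers were not taken to pair the samples. A batch shared by some libraries was not tested. With a replicate block 5, 0 and 7 members were called in the 3 comparisons. Of 89 calls of listed genes, 36 held in every setting and 24 were lost with the GC and length correction. Genes called among all tested moved by over 1.5 times in TLR9KO minus WT, from 3229 to 1654 with that correction and 1985 without WT replicate 1, and in STAT3KO minus TLR9KO, from 2409 to 3807 with array weights and 1577 without TLR9KO replicate 4. Median-ratio scaling shifted the median of all genes by -0.089 at most. With 3 or 4 libraries a group, and H2-Oa and H2-Ob on 34.0 to 283.7 reads, small differences in these members were not detectable.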
